A study of Mus musculus with 57 samples.

Results

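Apoe, Trem2 and 8 further genes of the disease-associated microglia program, Tyrobp, Cst7, Lpl, Itgax, Spp1, Gpnmb, Cd9 and Lgals3, were followed gene by gene in CD11b-positive cells isolated from mouse brain and annotated as microglia. The 10 genes were taken by symbol from both deposited count tables, which list 50565 and 53278 genes, and all 10 passed the low-count filter in both, where 31709 and 16088 genes were tested. The study compared adult wild-type (WT) mice with littermates lacking P2RY12 (KO), the purinergic receptor by which resting microglia sense ADP. How the P2RY12-deficient line was made is not given in the sources used here. In the first of 2 experiments, named here the sex experiment, 18 animals were compared: 4 WT and 5 KO males, and 4 WT and 5 KO females. No treatment is given for these animals individually, although the general protocol names LPS for the series. Each column was taken as 1 animal. The second, named the LPS experiment, held WT and KO libraries labelled LPS or ns. Lipopolysaccharide (LPS), from the outer membrane of Gram-negative bacteria, causes systemic inflammation through TLR4, and the protocol gives an intraperitoneal dose of 1 mg/kg. What ns stands for is not explained, so it is used here as written. The labels give neither the sex nor the time after injection in that experiment.

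Disease-associated microglia are a transcriptional state described around amyloid plaques and in other neurodegenerative settings, in which resting-state genes such as P2ry12 are low and a set of phagocytic and lipid-handling genes is high. TREM2 is a surface receptor for lipids and lipoproteins, among them APOE, and signals through the adaptor TYROBP (DAP12). Cst7, Lpl, Itgax, Spp1, Gpnmb, Cd9 and Lgals3 are markers of that state. Several of them are also transcribed by other myeloid cells: Lgals3 by monocytes and neutrophils, Apoe by macrophages at the brain's borders, and Itgax by dendritic cells.

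Library totals ran from 58.5 to 318.5 M counts (M standing for mega) in the sex experiment and from 15.9 to 168.4 M in the LPS experiment. The targeted gene P2ry12 was at 3195 to 5928 CPM in male WT and 439 to 526.4 in male KO, and at 3007 to 4880.0 in female WT and 309 to 438 in female KO, so counts remained in KO animals. In the LPS experiment it was at 585 to 1243 CPM in KO ns and 84.2 to 154 CPM in KO LPS. CPM are counts per M counts of the TMM-scaled library throughout. Microglia markers (Tmem119, Sall1, Olfml3, Gpr34, Siglech and Slc2a5 in both tables, Fcrls in the LPS table) were above 0 in every library. Their summed level was 5369.7 CPM in male WT 5, 5671 CPM in female WT 2 and at least 7057 CPM in the other 16 animals. These same 2 animals had neutrophil marker sums (S100a8, S100a9, Retnlg, Ly6g, Camp, Ngp, Ltf and Mmp8) of 48214 and 28621 CPM, against 720.0 to 7667 CPM in the other 16. In the LPS experiment, 4 WT libraries of library number 2 went against their treatment labels. The 2 labelled WT ns had 481 and 927 CPM of P2ry12 and 1781 and 2491 CPM of Saa3, an acute-phase gene, against 3516 to 5406 and 1.52 to 64.3 CPM in the other 6 libraries labelled WT ns. The 2 labelled WT LPS had 4461 and 12154 CPM of P2ry12 and 1.59 and 3.21 CPM of Saa3, against 400.3 to 1063 and 1418 to 9720.5 CPM in the other 6 WT LPS samples. These 4 libraries were left out of the fit and are given apart, and results with every library in the group of its label are given beside it. A further 4 libraries (WT LPS 7, KO ns 5, KO ns 6 and KO LPS 5, all of library set 2) had 2.69% to 8.55% of their counts in mitochondrially encoded genes, while the other 24 samples of the fit had 0.787% to 1.81%. That left 6 WT ns, 6 WT LPS, 8 KO ns and 8 KO LPS samples, 1 of the WT LPS samples being the sum of 2 nearly identical libraries. The labels do not say which libraries come from separate animals, so p-values measure the spread between these samples.

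Loss of P2RY12 was compared first in the sex experiment. None of the 10 genes was called between KO and WT in males, in females or over both sexes (edgeR's quasi-likelihood test, Benjamini-Hochberg adjustment over all genes tested, called where adjusted p is under 0.05). Over all genes, 0.00946% were called in males, 0.164% in females and 0.432% over both sexes. Unadjusted p-values under 0.05 were reached by 1 of the 10 genes in males, 4 in females and 4 over both sexes. Of all 31709 genes tested, 2171, 1655 and 2860 reached them in the same order. DESeq2 called 0 of them in males, 0 in females and 1, Apoe, over both sexes, where it called 1.13% of all genes. The 4 genes with the lowest p-values over both sexes, Apoe, Itgax, Tyrobp and Cst7, all had their higher mean level in KO.

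**Figure D1:**
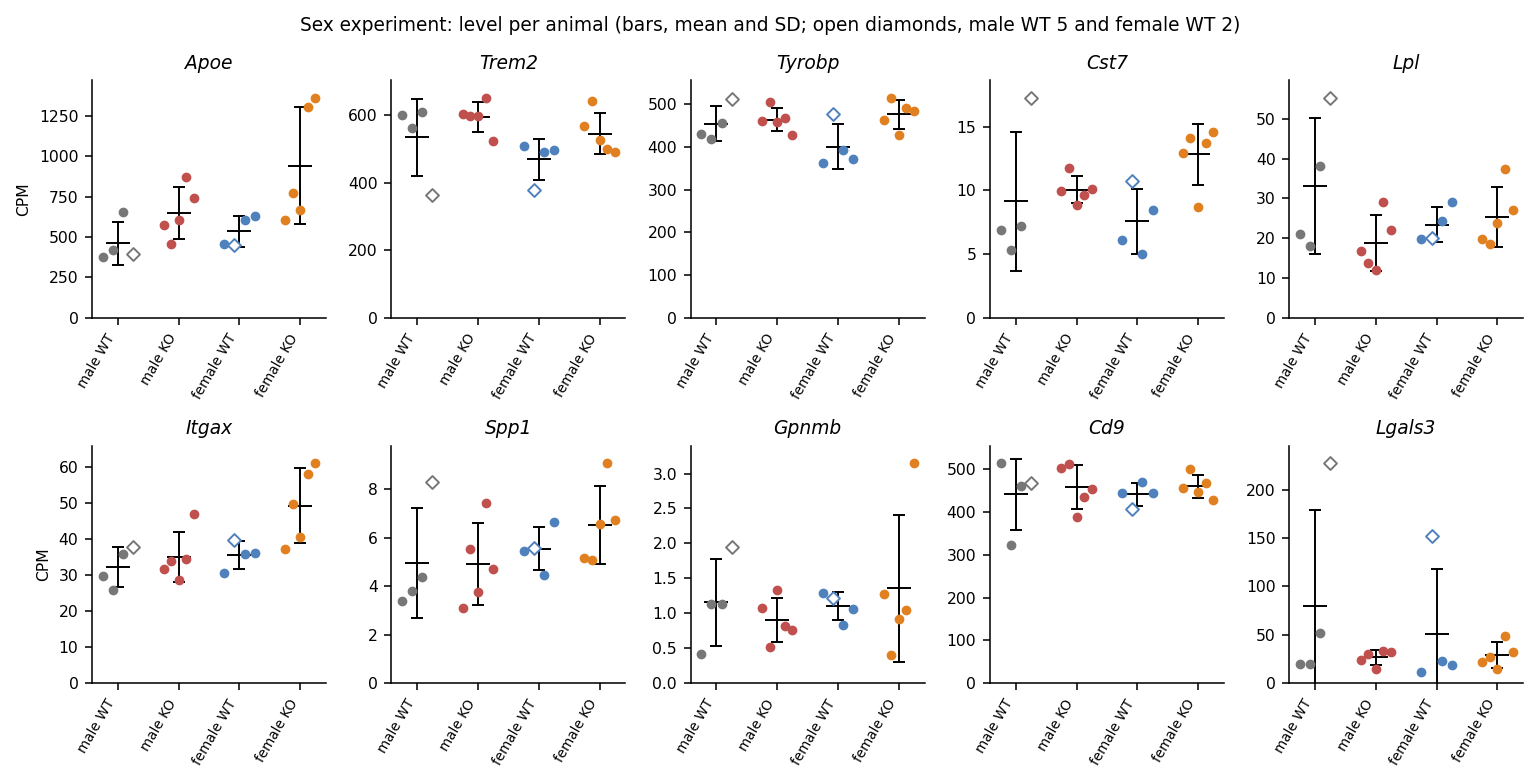
Level of each of the 10 genes in CPM (vertical axes, from 0) in the 18 animals of the sex experiment by group (horizontal axes), with the mean and SD as bars and male WT 5 and female WT 2 as open diamonds. Female KO holds the highest Apoe and Itgax animals, and the open diamonds hold the highest Lgals3 and the lowest Trem2 levels.

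Apoe (GRCm39, chromosome 7, 19430169 to 19434326, minus strand) encodes apolipoprotein E, the main apolipoprotein of brain and a ligand of TREM2. Values are given in order of animal number within each group. It was at 375, 423, 657 and 393 CPM in the 4 male WT animals and at 572, 456, 604, 874 and 742 CPM in the 5 male KO animals. Female WT animals had 456, 451, 609 and 631 CPM, and female KO animals 608, 771, 667, 1306 and 1362 CPM. The groups overlapped in both sexes, and the 2 highest values were those of female KO 4 and female KO 5. Group means (± SD) stood in the order male WT 462 ± 132, female WT 537 ± 96.5, male KO 649.6 ± 162 and female KO 943 ± 363 CPM, and neighbours in that order differed by less than the larger of their SDs. The log2 fold change of KO against WT (± SE) was 0.65 ± 0.19 (adjusted p = 0.247) over both sexes, 0.49 ± 0.27 (adjusted p = 0.728) in males and 0.81 ± 0.27 (adjusted p = 0.532) in females, and the difference between the sexes was 0.32 ± 0.37 (adjusted p = 0.999). With DESeq2 the value over both sexes was 0.65 ± 0.18 (adjusted p = 0.0247). Fits with the animal number as a block also called Apoe over both sexes, with values given in the section on processing.

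Female KO 4 and female KO 5 also had the highest summed levels of 7 markers of border-associated macrophages (Mrc1, Lyve1, Cd163, Pf4, F13a1, Ms4a7 and Cbr2), 907 and 1176 CPM, against 213.5 to 660.0 CPM in the other 16 animals. All 7 markers were above 0 in every animal. Over the 18 animals, log2 Apoe and the log2 marker sum correlated with Pearson's r = 0.67 (permutation p = 0.00256, adjusted p = 0.0205) and Spearman's rho = 0.51 (permutation p = 0.0345, adjusted p = 0.092), among 40 such relations computed. Of the 10 genes, 5 (Apoe, Lpl, Itgax, Spp1 and Gpnmb) had an adjusted p under 0.05 for r with this sum, and 2 for rho. Such counts were not particular to these markers. They were 4, 5 and 3 for r with the microglia, monocyte and neutrophil sums, and 4, 3 and 2 for rho. Among those were Lpl with the monocyte sum (r = 0.57) and Itgax and Spp1 with the microglia sum (rho = -0.81 and -0.69). Without female KO 4 and female KO 5, r of Apoe with the macrophage sum was 0.29, so that relation rested on these 2 animals. In the fit without them the Apoe difference was 0.43 ± 0.15 (adjusted p = 0.611) over both sexes and 0.35 ± 0.23 (adjusted p = 1) in females, less than 0.81 ± 0.27 with them. The part of these cells in the Apoe level was not tested. In sequenced bulk cells, fewer cells of a type and less RNA per cell cannot be told apart.

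Trem2 (chromosome 17, 48653429 to 48659304, plus strand), the receptor, was at 601, 561, 609 and 365 CPM in male WT and 603, 597, 596, 651 and 524 CPM in male KO. In females it was at 509, 378, 492 and 498 CPM in WT and 569, 641, 528, 499 and 490.2 CPM in KO. The values of male WT 5 and female WT 2 lay well below all others, and the remaining animals of both genotypes overlapped. Over both sexes the log2 difference was 0.19 ± 0.09 (adjusted p = 0.571), and without those 2 animals it was 0.07 ± 0.06 (adjusted p = 1).

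Tyrobp (chromosome 7, 30113207 to 30117007, plus strand), its adaptor, had 430.0, 419, 457 and 513 CPM in male WT, 461, 505, 458, 468 and 429 in male KO, 362, 477, 392 and 371 in female WT and 463, 515, 427, 491 and 485 in female KO. The highest WT values in each sex were again those of male WT 5 and female WT 2, with male WT 5 above every male KO animal. The difference was 0.25 ± 0.09 (adjusted p = 0.588) in females and 0.03 ± 0.09 (adjusted p = 0.997) in males. Without the 2 animals Tyrobp was called in females at 0.35 ± 0.08 (adjusted p = 0.0355), in a fit that called 0.602% of all genes, and not over both sexes (0.22 ± 0.05, adjusted p = 0.0542).

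Cst7 (chromosome 2, 150412335 to 150420864, plus strand) encodes cystatin F, an inhibitor of lysosomal cathepsins made by leukocytes. Its levels were 6.86, 5.30, 7.18 and 17.3 CPM in male WT and 9.93, 11.7, 8.86, 9.62 and 10.1 CPM in male KO. In females they were 6.10, 10.7, 5.02 and 8.50 CPM in WT and 13.0, 14.1, 8.74, 13.7 and 14.6 CPM in KO. Among the WT animals the highest of each sex were male WT 5 and female WT 2; the other 6 WT animals lay between 5.02 and 8.50 CPM and all 10 KO animals between 8.74 and 14.6 CPM, without overlap. With every animal the log2 difference over both sexes was 0.45 ± 0.21 (adjusted p = 0.551). Without male WT 5 it was 0.70 ± 0.14 (adjusted p = 0.0143), and without male WT 5 and female WT 2 it was 0.81 ± 0.12 (adjusted p = 7.14e-04), both called, where 0.865% and 0.969% of all genes were called. In the latter fit the difference was 0.98 ± 0.17 (adjusted p = 0.00439) in females and 0.64 ± 0.17 (adjusted p = 0.395) in males, and the difference between the sexes was 0.34 ± 0.24 (adjusted p = 1). Leaving out these animals was chosen after their values were seen.

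Lpl (chromosome 8, 69333207 to 69359584, plus strand) encodes lipoprotein lipase, which releases fatty acids from lipoproteins. It was at 21.1, 18.2, 38.1 and 55.3 CPM in male WT and 16.7, 13.8, 12.0, 29.2 and 22.2 CPM in male KO, and at 19.9, 20.1, 24.4 and 29.2 CPM in female WT and 19.8, 18.5, 23.95, 37.5 and 27 CPM in female KO. The male log2 difference was -0.82 ± 0.33 (adjusted p = 0.719), with male WT 5 as the highest animal, and -0.46 ± 0.33 (adjusted p = 1) without male WT 5 and female WT 2. In females it was 0.12 ± 0.34 (adjusted p = 1), and the groups overlapped in both sexes. Over the 18 animals log2 Lpl correlated with the log2 sum of border-associated macrophage markers at r = 0.65 (permutation p = 0.0033, adjusted p = 0.022) and rho = 0.75 (permutation p = 0.00047, adjusted p = 0.0047). Without female KO 4 and female KO 5 r was 0.68, and the part of those cells in the Lpl level was not tested.

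Itgax (chromosome 7, 127728697 to 127749829, plus strand) encodes the integrin chain CD11c. It was at 29.6, 25.9, 35.8 and 37.8 CPM in male WT and 31.6, 33.8, 28.7, 34.3 and 46.8 CPM in male KO. Female WT animals had 30.4, 39.7, 35.8 and 36.1 CPM and female KO animals 37.1, 49.7, 40.4, 57.9 and 60.9 CPM, the highest again being female KO 4 and female KO 5. The difference was 0.47 ± 0.16 (adjusted p = 0.536) in females and 0.12 ± 0.16 (adjusted p = 0.976) in males, and 0.27 ± 0.16 (adjusted p = 1) in females without female KO 4 and female KO 5. Between the sexes, averaged over genotypes, Itgax had the lowest p-value of the 10 genes, with a female minus male difference of 0.31 ± 0.11 (adjusted p = 0.254); no member was called there, and 0.861% of all genes were. By unadjusted p under 0.05, 1 of the 10 was below the threshold in that comparison, beside 3926 of all 31709 genes, and DESeq2 called 0 of the 10.

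Spp1 (chromosome 5, 104582977 to 104588919, plus strand), which encodes the secreted phosphoprotein osteopontin, ranged over 3.40 to 8.29 CPM in male WT, 3.12 to 7.45 in male KO, 4.48 to 6.65 in female WT and 5.09 to 9.08 in female KO. Gpnmb (chromosome 6, 49013449 to 49044413, plus strand), a transmembrane glycoprotein of lysosomes, was the most weakly counted of the 10, with 31 to 389 counts per animal and levels of 0.422 to 1.95, 0.521 to 1.34, 0.833 to 1.29 and 0.398 to 3.15 CPM in the same order of groups. Cd9, a tetraspanin that organises membrane receptors, ranged over 324 to 514 CPM in male WT, 388 to 513 in male KO, 406 to 471 in female WT and 429 to 500.0 in female KO. All groups overlapped for these 3 genes. The log2 differences over both sexes were 0.11 ± 0.19 (adjusted p = 0.977) for Spp1, -0.04 ± 0.32 (adjusted p = 0.999) for Gpnmb and 0.06 ± 0.08 (adjusted p = 0.955) for Cd9. Cd9 lies on chromosome 6 from 125437229 to 125471723 on the minus strand (GRCm39), where the gene models Gm28809 and Gm26728 on the plus strand overlap it. Counts of those models came to 2.98% and 18.7% of the Cd9 counts, and whether the counting used strand is not given in the sources used here. No other member overlapped a gene of the table.

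Lgals3 (chromosome 14, 47611317 to 47623624, plus strand), the galectin that binds damaged lysosomes and is abundant in infiltrating myeloid cells, was spread most widely. It was at 19.8, 20.2, 51.7 and 227 CPM in male WT and 23.7, 29.9, 15.0, 33.3 and 32.6 CPM in male KO, and at 11.9, 152, 22.8 and 18.6 CPM in female WT and 21.5, 27.3, 14.5, 49.3 and 32.5 CPM in female KO. Male WT 5 and female WT 2 were the highest by far, and the other animals of all 4 groups overlapped. The log2 difference over both sexes was -1.19 ± 0.57 (adjusted p = 0.567), and without those 2 animals it changed sign to 0.26 ± 0.31 (adjusted p = 1). Over the 18 animals, log2 Lgals3 followed the log2 neutrophil marker sum with r = 0.97 and rho = 0.91 (permutation p = 1e-05 for both, the smallest that 100000 permutations can give, adjusted p = 0.0002). Without male WT 5 and female WT 2, the 2 animals farthest from the median sum, r was 0.90. The sum of 5 monocyte markers (Ly6c2, Ccr2, Plac8, Chil3 and Vcan) gave r = 0.98 (permutation p = 1e-05, adjusted p = 0.0002), and 0.94 without the same 2 animals. All 8 neutrophil markers were above 0 in every animal, and the part of either cell type in the Lgals3 level was not tested.

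**Figure D2:**
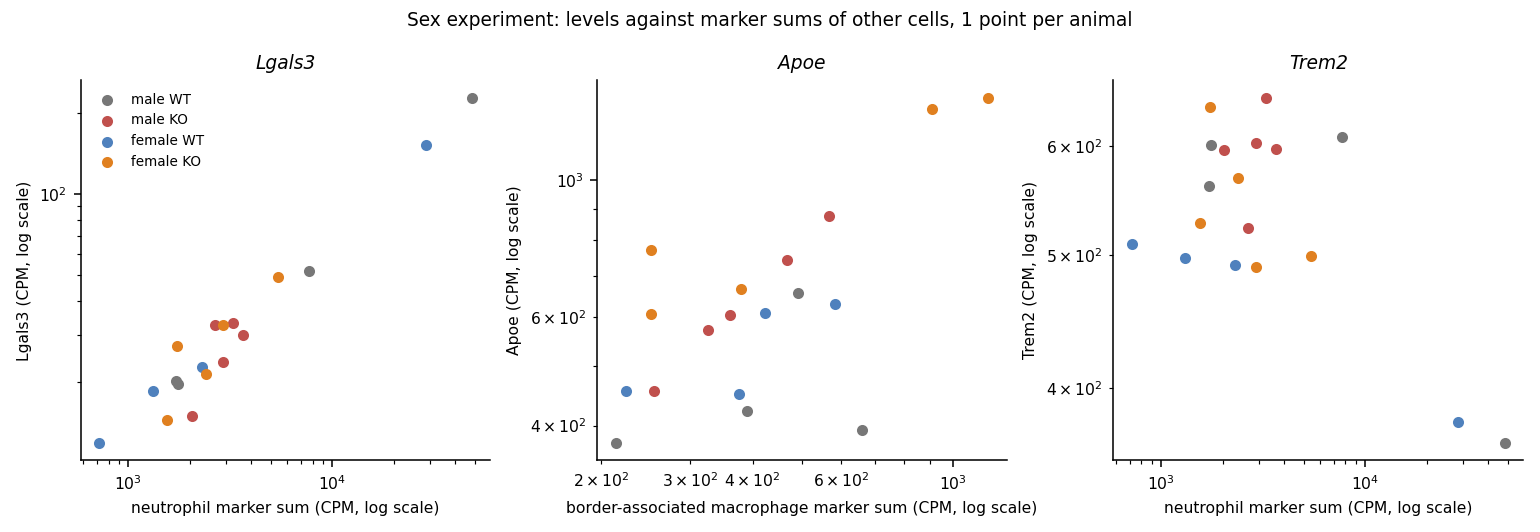
Levels of Lgals3, Apoe and Trem2 (vertical axes, CPM, log scale) against the summed markers of neutrophils or border-associated macrophages (horizontal axes, CPM, log scale), 1 point per animal of the sex experiment, coloured by group. Lgals3 rises with the neutrophil sum over all animals, Apoe is highest in the 2 female KO animals with the highest macrophage sums, and Trem2 is lowest in the 2 WT animals with the highest neutrophil sums.

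The effect of genotype was not shown to differ between males and females for any of the 10 genes. In the interaction test 0 of them were called, 0 had an unadjusted p-value under 0.05, DESeq2 called 0, and 0% of all genes were called. Of all 31709 genes, 879 had an unadjusted p-value under 0.05 there. All 10 estimates had the more positive KO minus WT difference in females, and the median estimate over all genes was 0.03. The 10 estimates come from the same animals and are not independent. Over the other settings the lowest estimate was below 0 for Lgals3 (-0.63), Apoe (-0.15), Spp1 (-0.12), Cd9 (-0.07) and Trem2 (-0.03). Tyrobp, Cst7, Lpl, Itgax and Gpnmb stayed above 0 in every setting. The interaction with the lowest p-value was that of Lpl, 0.94 ± 0.47 (adjusted p = 0.999).

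The response to LPS was compared within each genotype. In WT, 5 of the 10 genes were called: Apoe, Trem2 and Itgax fell, and Cst7 and Spp1 rose. In KO, 6 were called: Trem2 and Cd9 fell, and Cst7, Lpl, Spp1 and Gpnmb rose. Of all genes 30.7% were called in WT (15.5% higher, 15.2% lower) and 28.5% in KO (14.4% higher, 14.1% lower). DESeq2 also called 5 of the 10 in WT and 6 in KO, its share over all genes not being counted here. With every library in the group of its label, 0 of the 10 and 0% of all genes were called in WT, where 3605 of 15857 genes had an unadjusted p-value under 0.05, while the same 6 genes and 22.3% of all genes were called in KO.

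**Figure D3:**
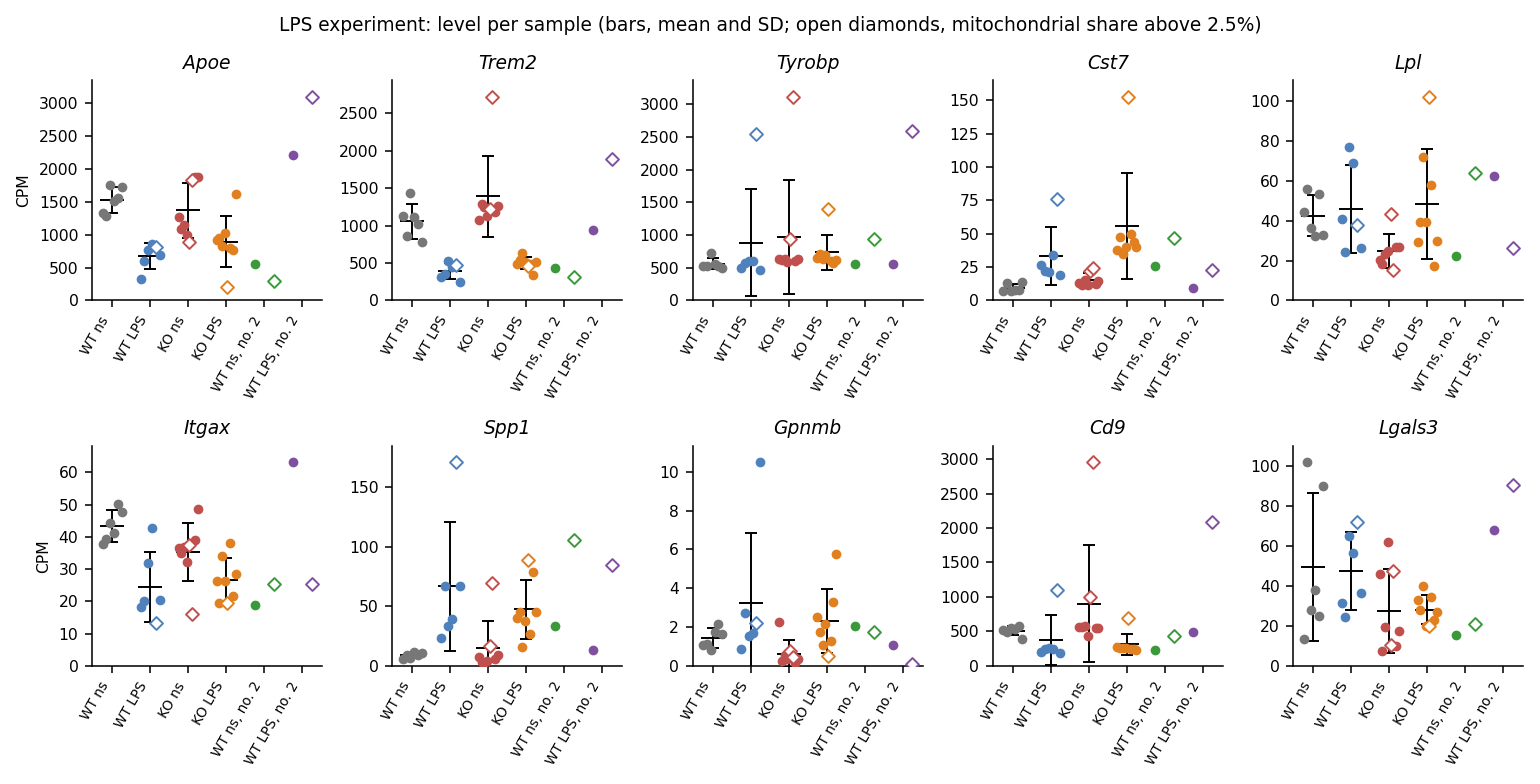
Level of each gene in CPM (vertical axes, from 0) in the 32 samples of the LPS experiment by group (horizontal axes), with the mean and SD of the 4 fitted groups as bars, the 4 WT libraries of number 2 in the 2 right-hand columns, and open diamonds for libraries with more than 2.5% mitochondrial counts. Trem2 was lower and Cst7 higher in every LPS sample than in every ns sample of its genotype among the fitted samples.

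Trem2 fell in both genotypes. The lowest, median and highest levels were 785, 1065 and 1443 CPM in 6 WT ns samples and 245, 401 and 534 CPM in 6 WT LPS samples. In 8 KO ns and 8 KO LPS samples they were 1079, 1235 and 2726 and 341, 502 and 633 CPM. The ns and LPS samples did not overlap in either genotype, and KO ns 6 stood above the rest at 2726 CPM. The log2 difference LPS minus ns was -1.39 ± 0.24 (adjusted p = 8.45e-05) in WT and -1.46 ± 0.21 (adjusted p = 5.68e-06) in KO, so that Trem2 was at 0.383 and 0.363 times its ns level. Of the 4 libraries shown apart, the 2 labelled WT ns had 434 and 315 CPM, below every fitted ns sample, and the 2 labelled WT LPS had 939 and 1894 CPM, above every fitted LPS sample. With every library as labelled the WT difference was -0.46 ± 0.34 (adjusted p = 0.401). Resting-state microglia genes were lower too: of 7 microglia markers 7 fell in WT and 6 in KO, and 0 rose, against 15.2% and 14.1% of all genes called lower, with Siglech at -2.25 ± 0.23 and -2.27 ± 0.20. Their summed level ran from 8222 to 13041.5 CPM in WT ns, 2486 to 5313 in WT LPS, 11054 to 24847 in KO ns and 3293 to 6369 in KO LPS, with no overlap between ns and LPS in either genotype. Their part in the Trem2 level was not tested.

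Tyrobp, the adaptor of TREM2, did not pass the test in either genotype. Its lowest, median and highest levels were 499, 531 and 729.9 CPM in WT ns, 462, 589 and 2547 in WT LPS, 594, 632 and 3116 in KO ns and 570.0, 635 and 1393 in KO LPS. WT LPS 7, KO ns 6 and KO LPS 5, at 2547, 3116 and 1393 CPM, stood far above the others of their groups and were among the 4 libraries of high mitochondrial share. The log2 difference was 0.57 ± 0.42 (adjusted p = 0.316) in WT and -0.29 ± 0.36 (adjusted p = 0.609) in KO. Without those 4 libraries it was -0.03 ± 0.09 (adjusted p = 0.773) and 0.07 ± 0.08 (adjusted p = 0.513), with smaller standard errors.

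Apoe fell in WT. Its lowest, median and highest levels were 1283, 1533 and 1761 CPM in WT ns and 329, 727 and 859 CPM in WT LPS, without overlap. In KO they were 888, 1199 and 1882 and 201, 873 and 1618 CPM, and the groups overlapped, with KO LPS 8 as the highest LPS sample. On the log2 scale the change was -1.15 ± 0.29 (adjusted p = 0.00357) in WT and -0.57 ± 0.25 (adjusted p = 0.0937) in KO. In KO the difference was called without KO LPS 8 (-0.76 ± 0.26, adjusted p = 0.0313) and without the 4 libraries of high mitochondrial share (-0.46 ± 0.18, adjusted p = 0.0288). The 2 apart libraries labelled WT ns had 547 and 299 CPM and the 2 labelled WT LPS 2206 and 3097 CPM. Border-associated macrophage sums had lower medians under LPS, but overlapped between ns and LPS in both genotypes. They ran from 323.8 to 950.6 CPM in WT ns, 176.5 to 547.2 in WT LPS, 243.5 to 715.2 in KO ns and 155.1 to 492.4 in KO LPS. All 7 markers were above 0 in every library. Of the 7, 2 fell in WT and 3 in KO, and 0 rose, against 15.2% and 14.1% of all genes called lower. KO LPS 5, the lowest KO LPS sample for Apoe, had the highest macrophage sum of its group, 492.4 CPM. The part of those cells in the Apoe level was not tested.

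Cst7 rose in both genotypes. Its lowest, median and highest levels were 7.29, 7.89 and 13.7 CPM in WT ns and 19.2, 24.4 and 76.4 CPM in WT LPS, and 11.3, 14.1 and 24.4 CPM in KO ns and 34.9, 41.9 and 153 CPM in KO LPS. No LPS sample overlapped an ns sample of its genotype. WT LPS 7 and KO LPS 5 were the highest of their groups. The log2 difference was 1.77 ± 0.35 (adjusted p = 3.53e-04) in WT and 1.87 ± 0.30 (adjusted p = 2.78e-05) in KO, or 3.40 and 3.64 times the ns level. The apart libraries had 25.5 and 46.8 CPM where labelled WT ns and 9.40 and 22.5 CPM where labelled WT LPS.

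Spp1 showed the largest fold of the 10 genes in both genotypes. It was at 5.80, 8.94 and 11.5 CPM (lowest, median and highest) in WT ns and 23.7, 53.0 and 171 CPM in WT LPS, without overlap. KO ns samples had 2.55, 6.42 and 69.4 CPM and KO LPS samples 15.9, 42.7 and 88.5 CPM, and they overlapped only through KO ns 5 and KO ns 6, at 16.9 and 69.4 CPM. The fitted log2 change was 2.84 ± 0.57 (adjusted p = 4.31e-04) in WT and 2.02 ± 0.49 (adjusted p = 0.00235) in KO. Without the 4 libraries of high mitochondrial share it was 2.47 ± 0.33 (adjusted p = 2.40e-06) and 2.92 ± 0.33 (adjusted p = 1.87e-07). In the apart libraries Spp1 was at 33.6 and 105 CPM where labelled WT ns and at 13.1 and 84.5 CPM where labelled WT LPS, the last being WT LPS 6 with a mitochondrial share of 7.46%.

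Itgax fell in WT, from 37.8, 42.7 and 50.2 CPM (lowest, median and highest) in WT ns to 13.2, 20.2 and 42.7 CPM in WT LPS; WT LPS 5, at 42.7 CPM, lay among the WT ns samples. In KO it was at 16.2, 36.6 and 48.6 CPM in ns and 19.4, 26.3 and 38.2 CPM in LPS, and KO ns 6, at 16.2 CPM, was the lowest of all 16. The log2 difference was -0.80 ± 0.23 (adjusted p = 0.0106) in WT and -0.36 ± 0.20 (adjusted p = 0.198) in KO. Without KO ns 6 the KO difference was called, -0.50 ± 0.18 (adjusted p = 0.0421), as it was without the 4 libraries of high mitochondrial share (-0.47 ± 0.16, adjusted p = 0.0178). Dendritic cell markers were lower under LPS as a sum, but not in step with Itgax in every sample. KO ns 6, the lowest KO sample for Itgax, had the highest such sum of the fitted samples, 58.5 CPM. Of 5 (Cd209a, Flt3, Zbtb46, Xcr1 and Clec9a) 3 fell in each genotype and 0 rose, and their sum was 21.4 to 43.1 CPM in WT ns, 6.94 to 14.7 in WT LPS, 20.1 to 58.5 in KO ns and 6.10 to 12.9 in KO LPS. Clec9a was at 0 in 5 and Xcr1 in 1 of the 32 samples, and the part of those cells in the Itgax level was not tested. The apart libraries had 18.8 and 25.5 CPM where labelled WT ns and 63.3 and 25.3 CPM where labelled WT LPS.

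Lpl was called in KO and not in WT. In WT its lowest, median and highest levels were 32.5, 40.3 and 55.9 CPM at ns and 24.4, 39.5 and 76.9 CPM at LPS. In KO they were 15.3, 24.05 and 43.5 CPM at ns and 17.4, 39.3 and 102 CPM at LPS, with overlap in both genotypes. LPS minus ns came to 0.14 ± 0.36 (adjusted p = 0.799) in WT and 1.03 ± 0.31 (adjusted p = 0.0139) in KO, and the test of the difference between them gave 0.89 ± 0.47 (adjusted p = 0.772). Without KO LPS 5, the highest sample at 102 CPM, the KO difference was no longer called (0.72 ± 0.29, adjusted p = 0.054). The apart libraries had 22.2 and 63.8 CPM where labelled WT ns and 62.5 and 26.1 CPM where labelled WT LPS.

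Gpnmb was counted sparsely, with 4 to 587 counts per fitted sample. Its lowest, median and highest levels were 0.803, 1.37 and 2.17 CPM in WT ns, 0.884, 1.93 and 10.5 in WT LPS, 0.149, 0.414 and 2.24 in KO ns and 0.512, 1.95 and 5.77 in KO LPS, with overlap in both genotypes. The log2 difference was 1.21 ± 0.58 (adjusted p = 0.119) in WT and 1.76 ± 0.53 (adjusted p = 0.0137) in KO. The highest WT LPS sample, the sum of WT LPS 8 and WT LPS 9, was at 10.5 CPM. Apart from the fit, libraries labelled WT ns had 2.03 and 1.75 CPM and those labelled WT LPS 1.06 and 0.0783 CPM, the last from 1 count.

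Cd9 fell in KO, and in WT it was called in settings without WT LPS 7. Levels (lowest, median and highest) were 385, 525 and 583 CPM in WT ns, 189.7, 243 and 1099.6 in WT LPS, 436, 566 and 2958 in KO ns and 232, 261 and 689.5 in KO LPS. The samples far above their groups were WT LPS 7, KO ns 5, KO ns 6 and KO LPS 5, at 1099.6, 1001, 2958 and 689.5 CPM, the same 4 libraries of high mitochondrial share. With all fitted samples the log2 difference was -0.53 ± 0.44 (adjusted p = 0.373) in WT and -1.40 ± 0.38 (adjusted p = 0.0063) in KO. Without WT LPS 7 the WT difference was -1.07 ± 0.40 (adjusted p = 0.0493). Without all 4 it was -1.15 ± 0.10 (adjusted p = 2.43e-09) in WT and -1.06 ± 0.09 (adjusted p = 1.35e-09) in KO, and no LPS sample then overlapped an ns sample of its genotype. The apart libraries had 236 and 431 CPM where labelled WT ns and 495 and 2084 CPM where labelled WT LPS.

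Lgals3 did not pass the test in either genotype, with a log2 difference of -0.00 ± 0.49 (adjusted p = 0.999) in WT and 0.06 ± 0.43 (adjusted p = 0.938) in KO. Its lowest, median and highest levels were 13.3, 33.04 and 102 CPM in WT ns, 24.2, 46.3 and 71.9 in WT LPS, 7.43, 18.4 and 61.8 in KO ns and 19.7, 27.5 and 39.9 in KO LPS, overlapping throughout. The highest ns samples, WT ns 3 (102 CPM) and WT ns 8 (90.1 CPM), had the highest neutrophil marker sums of the experiment, 17265 and 16058 CPM. Without them the WT difference was 0.86 ± 0.50 (adjusted p = 0.221). The apart libraries had 15.2 and 20.8 CPM where labelled WT ns and 67.9 and 90.5 CPM where labelled WT LPS.

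Without the 4 libraries of high mitochondrial share, a setting added after the data were seen, 54.1% of all genes passed in WT and 54.7% in KO. In that fit 6 of the 10 genes were called in WT (Apoe, Trem2, Itgax and Cd9 lower, Cst7 and Spp1 higher) and 8 in KO (the same 4 lower, and Cst7, Spp1, Lpl and Gpnmb higher). Within library set 1, where no library had a high mitochondrial share, 6 of the 10 were called in WT and 5 in KO, against 42.6% and 45.3% of all genes. Within library set 2, which holds all 4 such libraries, 0 were called in WT and 1, Trem2, in KO (-1.81 ± 0.38, adjusted p = 0.0153), against 3.31% and 4.36% of all genes. The directions of Apoe, Trem2, Itgax, Cst7 and Spp1 were the same in both sets and both genotypes.

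**Figure D4:**
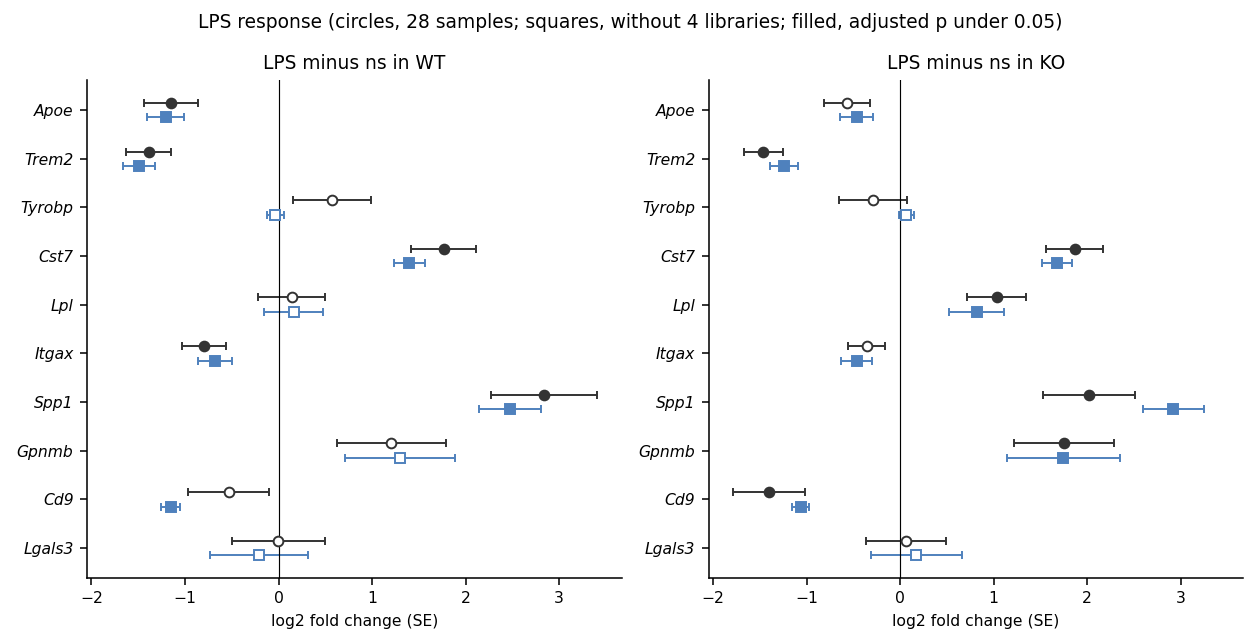
Log2 fold change of LPS against ns with its SE (horizontal axes) for each gene (vertical axes) in WT (left) and KO (right), from the 28 fitted samples (circles) and without the 4 libraries of high mitochondrial share (squares), filled where adjusted p is under 0.05. Trem2 and Apoe lie below 0 and Cst7 and Spp1 above 0 in both panels, and Cd9 in WT is filled only as a square.

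Promoter sequences are shown for a pair of genes that fell in WT (Trem2 and Itgax) and a pair that rose (Cst7 and Spp1), since their directions under LPS were opposite. They are the 250 bases before the annotated start, 5′ to 3′ on the gene's own strand, from RefSeq on GRCm38.p6, a build other than the GRCm39 of the counts. All 4 genes lie on the plus strand. Capitals mark a match on either strand to 1 of 6 motifs: AP-1 (TGANTCA), E-box (CACGTG), M-box (CATGTG), PU.1 (GAGGAAGT), NF-kB (GGANTTNCC) and STAT (TTCNNNGAA).
Trem2, chr17:48346151-48346400: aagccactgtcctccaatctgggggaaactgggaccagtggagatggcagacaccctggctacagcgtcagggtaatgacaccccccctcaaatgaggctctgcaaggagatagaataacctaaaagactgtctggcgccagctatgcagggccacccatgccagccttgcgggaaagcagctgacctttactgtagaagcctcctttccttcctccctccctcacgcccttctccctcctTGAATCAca
Itgax, chr7:128129300-128129549: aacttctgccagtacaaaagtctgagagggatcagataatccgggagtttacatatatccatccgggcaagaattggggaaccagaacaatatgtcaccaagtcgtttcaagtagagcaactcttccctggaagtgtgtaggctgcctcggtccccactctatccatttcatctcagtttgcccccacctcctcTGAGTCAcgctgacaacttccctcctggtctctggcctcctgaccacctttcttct
Cst7, chr2:150570165-150570414: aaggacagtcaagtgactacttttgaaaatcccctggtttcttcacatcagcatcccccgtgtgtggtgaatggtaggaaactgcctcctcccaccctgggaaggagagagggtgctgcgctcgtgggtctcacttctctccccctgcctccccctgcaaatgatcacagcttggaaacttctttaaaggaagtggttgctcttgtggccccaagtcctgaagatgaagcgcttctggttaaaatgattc
Spp1, chr5:104434861-104435110: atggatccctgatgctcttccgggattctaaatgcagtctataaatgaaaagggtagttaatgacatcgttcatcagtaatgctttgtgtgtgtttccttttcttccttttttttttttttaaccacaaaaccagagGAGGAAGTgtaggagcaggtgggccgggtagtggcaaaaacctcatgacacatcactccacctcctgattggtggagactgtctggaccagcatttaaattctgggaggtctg
The Trem2 window holds TGAATCA 9 to 3 bases before the start and the Itgax window TGAGTCA 56 to 50 bases before it, both matches to the AP-1 motif, which 6.75% of 32851 RefSeq promoter windows of this length hold. The Spp1 window shown holds the PU.1 motif GAGGAAGT 113 to 106 bases before the start, as do 2.44% of windows. A second listed Spp1 window (chr5:104435942-104436191, not shown) held none of the 6 motifs. None of the 6 motifs was in the Cst7 window. Promoters were listed for 8 of the 10 genes, in 11 windows, and the only other match was an M-box at Cd9 (CACATG, 38 to 33 bases before the start), a motif in 12.3% of windows. The E-box, NF-kB and STAT motifs, in 6.02%, 3.15% and 7.02% of windows, matched none of the members' windows. A match describes the letters of the window and nothing more.

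KO and WT were then compared within ns and within LPS. None of the 10 genes was called in either, against 0.0932% and 0.0746% of all genes. Unadjusted p-values under 0.05 were reached by 2 genes at ns, Lpl and Cst7, and by 1 at LPS, Cst7, and DESeq2 called 0 in both. Of all 16088 genes tested, 1480 reached them at ns and 1019 at LPS. In the test of whether the LPS response differed between genotypes, 0 of the 10 were called, 0 had an unadjusted p-value under 0.05 (708 of all 16088 genes did), DESeq2 called 0 and 0% of all genes were called. The genes called in 1 genotype only were therefore not shown to respond differently; beside Lpl, the interaction was -0.87 ± 0.58 (adjusted p = 0.772) for Cd9, 0.58 ± 0.38 (adjusted p = 0.772) for Apoe, 0.44 ± 0.31 (adjusted p = 0.772) for Itgax and 0.55 ± 0.77 (adjusted p = 0.841) for Gpnmb.

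Cst7 and Trem2 had positive KO minus WT estimates in males, in females, at ns and at LPS, the LPS experiment being fitted without the 4 libraries shown apart. The Cst7 mean (± SD) at ns was 9.58 ± 3.08 CPM for WT and 15.6 ± 4.89 CPM for KO, and 33.4 ± 21.8 in WT LPS and 55.8 ± 39.5 in KO LPS. The log2 difference of KO against WT was 0.68 ± 0.32 (adjusted p = 0.543) at ns and 0.78 ± 0.32 (adjusted p = 0.675) at LPS, with overlap of the groups in both. Without the 4 libraries of high mitochondrial share it was 0.48 ± 0.16 (adjusted p = 0.248) at ns and 0.76 ± 0.16 (adjusted p = 0.0438) at LPS, the latter called where 0.28% of all genes were. In that fit WT LPS samples lay at 19.2 to 34.4 CPM and KO LPS samples at 34.9 to 50.2 CPM, without overlap. With every library as labelled the difference was -0.06 ± 0.36 (adjusted p = 0.971) at ns and 0.96 ± 0.36 (adjusted p = 0.479) at LPS. Set beside these, the sex experiment gave 0.13 ± 0.29 in males and 0.76 ± 0.29 in females.

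Apoe and Lpl had estimates of both signs. The Apoe difference was -0.17 ± 0.27 (adjusted p = 0.747) at ns and 0.41 ± 0.27 (adjusted p = 0.94) at LPS, beside 0.49 ± 0.27 in males and 0.81 ± 0.27 in females of the sex experiment. For Lpl it was -0.78 ± 0.33 (adjusted p = 0.525) at ns and 0.11 ± 0.34 (adjusted p = 1) at LPS, beside -0.82 ± 0.33 in males and 0.12 ± 0.34 in females. Trem2 was at 0.42 ± 0.22 (adjusted p = 0.569) at ns and 0.34 ± 0.22 (adjusted p = 0.938) at LPS. With every library as labelled, several of these estimates changed sign: Apoe was at 0.11 ± 0.39 (adjusted p = 0.95) at ns and -0.37 ± 0.39 (adjusted p = 0.914) at LPS, and Trem2 at -0.37 ± 0.34 (adjusted p = 0.887) at LPS, beside 0.64 ± 0.34 (adjusted p = 0.596) at ns. Spp1 at ns went from 0.41 ± 0.52 to -0.96 ± 0.56, and Itgax at LPS from 0.14 ± 0.22 to -0.14 ± 0.26. For Lgals3 the values, again without the 4 apart libraries, were -0.83 ± 0.46 (adjusted p = 0.571) and -0.77 ± 0.46 (adjusted p = 0.896), and neutrophil sums were at a median of 2549 CPM in WT ns, 906 in KO ns, 2478 in WT LPS and 2104 in KO LPS. The part of those cells in the Lgals3 level was not tested. Tyrobp, Itgax, Spp1, Gpnmb and Cd9 had adjusted p-values of at least 0.572 at ns and of 1 (rounded) at LPS.

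**Figure D5:**
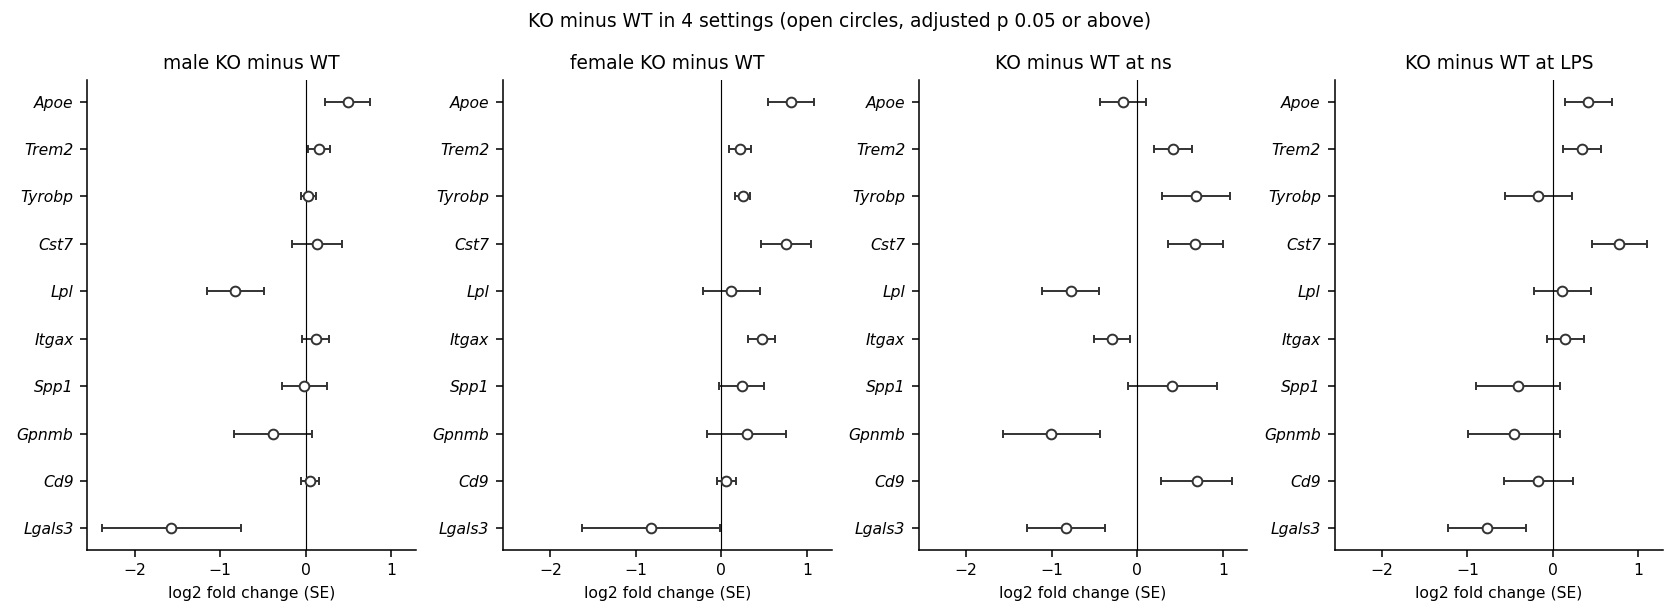
Log2 fold change of KO against WT with its SE (horizontal axes) for each gene (vertical axes) in males and females of the sex experiment and at ns and LPS of the LPS experiment. No point reached an adjusted p under 0.05; Cst7 and Trem2 lie above 0 in all 4 panels and Lgals3 below 0 in all 4, the LPS experiment being drawn without the 4 WT libraries of number 2.

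Other genes of the same pathways were counted from lists drawn up with earlier results of these data known. Of 7 further genes of the TREM2-independent step of the program (B2m, Fth1, Ctsb, Ctsd, Cstb, Lyz2 and Timp2), 3 rose and 2 fell under LPS in WT, and 1 rose and 2 fell in KO. Of all genes 15.5% were called higher and 15.2% lower in WT, and 14.4% and 14.1% in KO, the shares against which the list counts are read. Fth1, the ferritin heavy chain, rose by 2.33 ± 0.18 (log2 ± SE) in WT and 1.99 ± 0.15 in KO, and the lysosomal protease gene Ctsd changed by -1.10 ± 0.19 and -1.16 ± 0.17. B2m, the light chain of MHC class I, was called between KO and WT in the sex experiment, at 0.32 ± 0.07 over both sexes (adjusted p = 0.0397). Without male WT 5 and female WT 2, where 0.969% of all genes were called, B2m (0.34 ± 0.07, adjusted p = 0.0172), Fth1 (0.38 ± 0.07, adjusted p = 0.0035) and Cstb (0.29 ± 0.06, adjusted p = 0.0256) were higher in KO over both sexes. So was Cd63, a tetraspanin of late endosomes on the TREM2-dependent and tetraspanin lists (0.42 ± 0.06, adjusted p = 4.01e-04), while Itgav, the alpha-v chain of an osteopontin receptor, was lower (-0.27 ± 0.05, adjusted p = 0.00681). Fth1, Cstb, Cd63 and Itgav are named after their values in that fit were seen. Of 16 genes of the TREM2-dependent step, 5 rose and 3 fell in WT, and 5 rose and 5 fell in KO. There Gusb and Ctsz, both lysosomal enzymes, rose by 0.99 ± 0.12 and 1.23 ± 0.16 in WT, while the growth factor gene Igf1 and the adhesion gene Cadm1 changed by -2.91 ± 0.44 and -1.92 ± 0.18. The median log2 change of those 16 was -0.18 in WT and 0.06 in KO, beside 0.03 and 0.01 over all genes tested.

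Downstream of TREM2 and TYROBP, 2 of 11 signalling genes rose in each genotype and 0 fell, shares close to the 15.5% and 14.4% of all genes called higher: Lat2, a membrane scaffold, by 0.70 ± 0.16 in WT and 0.92 ± 0.14 in KO, and Pik3ap1, an adaptor of PI3-kinase, by 0.93 ± 0.27 and 1.27 ± 0.23. Syk, the kinase that TYROBP recruits, was not among those called. Trem1, a neighbour of Trem2 that also signals through TYROBP, rose in both genotypes, by 2.19 ± 0.59 in WT, opposite to Trem2, and with Treml2 in KO it made up the calls among 5 receptors of that locus. Around APOE, 4 of 10 tested lipid-handling genes rose in WT and 6 in KO, and 0 fell in either. They included the cholesterol exporter Abca1 (0.99 ± 0.22 in WT and 0.79 ± 0.19 in KO), the cholesterol acyltransferase gene Soat1 (0.87 ± 0.13 and 0.86 ± 0.11), the LXR gene Nr1h3 (1.92 ± 0.41 and 1.73 ± 0.36) and Apoc1 (1.36 ± 0.46 and 1.76 ± 0.41), which lies beside Apoe. Apoc1 was weakly counted, at means of 0.504 CPM in WT ns, 1.26 in WT LPS, 0.448 in KO ns and 1.36 in KO LPS.

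Around the other members, 4 of 6 cystatin and cathepsin genes rose in WT and 3 in KO, and 1 fell in each. Ctsc and Ctsl, proteases of the family that cystatin F restrains, rose by 2.27 ± 0.40 and 2.43 ± 0.40 in WT and by 1.69 ± 0.33 and 1.42 ± 0.34 in KO. Among 4 partners and relatives of the CD11c chain, 1 rose and 1 fell in WT, and 3 rose in KO. Itgam (CD11b, the antigen used to isolate the cells) rose by 0.92 ± 0.15 in WT and 1.03 ± 0.13 in KO on the log2 scale, Itgad fell by 1.39 in WT, and Itgb2, the shared beta chain, and Itgal rose by 0.88 ± 0.17 and 1.19 ± 0.30 in KO. Itgad was weakly counted, at means of 0.855 CPM in WT ns and 0.321 in WT LPS. Of 7 osteopontin receptors 1, Itga9, fell in WT, and in KO Itga9 fell and Cd44 rose. The Cd44 call (adjusted p = 0.0496) was lost with every library as labelled (adjusted p = 0.0655). It was also lost without the 4 libraries of high mitochondrial share (adjusted p = 0.183). Among 8 tetraspanins and CD9 partners, 3 rose and 1 fell in WT and 1 rose and 1 fell in KO. Lgals3bp, which encodes a galectin-3 binding protein, rose by 2.54 ± 0.24 in WT and 2.76 ± 0.21 in KO and was the call among 4 genes of that list. Of 2 tested partners and inhibitors of LPL 1, Angptl4, rose in KO by 3.14 ± 0.56. It was near the floor, with means (± SD) of 0.115 ± 0.131 CPM in KO ns and 1.05 ± 0.64 in KO LPS. Its means in WT were 0.416 CPM in ns and 1.11 in LPS. Among 8 transcription factors tied to the program, Cebpb and Tfec rose in both genotypes and 0 fell. All of these calls in WT were lost with every library as labelled. Without the 4 libraries of high mitochondrial share, where 54.1% (WT) and 54.7% (KO) of all genes passed, more list genes were called in both directions: of the 16 genes of the TREM2-dependent step 6 rose and 7 fell in each genotype, of the 11 signalling genes 5 rose and 1 fell in WT and 6 rose and 2 fell in KO, and of the 10 lipid-handling genes 6 rose and 1 fell in each. Of the 8 transcription factors 2 then rose and 4 fell in WT, and 3 rose and 3 fell in KO.

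Beyond the groups, the 10 genes varied together only in part. Over the 18 animals of the sex experiment, on log2 CPM deviations from the group mean, the 45 pairs had Pearson's r from -0.76 (Trem2 and Lgals3) to 0.85 (Tyrobp and Lgals3). Lpl and Spp1 were at r = 0.78, Tyrobp and Cst7 at 0.75, and Trem2 and Cst7 at -0.69. Male WT 5 and female WT 2 are among the points, which share library depth and cell makeup. Of genes with a mean of at least 5 CPM, those most like Apoe were Folr2 (r = 0.96), Ms4a7 (0.94) and Cbr2 (0.94), the last 2 being on the border-associated macrophage list. Those most like Lgals3 were Lyz2, Msrb1 and Plbd1 (r = 0.99 each), and those most like Itgax were Bhlhe40, Metrnl and Dusp2 (0.91 each). Trem2 went most closely with 2810025M15Rik, Alg5 and Tgfa (0.95 to 0.96), and Tyrobp with Rhog, Atp6v1f and Cdc42se1 (0.93 to 0.95). Nearest to Cst7 were Dclre1b, Rps15a-ps7 and Rpl9-ps6 (0.93 to 0.96), and to Lpl Inpp5f, Slc25a16 and Sdad1 (0.86 to 0.89). The best correlations of Spp1 (Zfp385c, Sesn2 and Eepd1, 0.82 to 0.83), Gpnmb (Zfp568, Grk4 and Xpo1, 0.76 to 0.78) and Cd9 (Rsc1a1, Pip5k1c and Vars, 0.83 to 0.88) were lower.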

How the data were processed

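Poly(A) RNA of CD11b-positive brain cells was sequenced on the NovaSeq platform, per the labels' protocols. The authors deposited raw read counts per gene in 2 tables. The submitters' processing notes name FastQC, STAR 2.6.1, featureCounts, Subread, DESeq2 and the build GRCm39, without parameters. Of counts up to 50, 78.4% to 87.7% were even in each column of the sex experiment and 41.0% to 46.2% in the LPS experiment, so the tables appear to have been counted differently and were never fitted together. In the sex table the length given for each of the 50565 genes equals its whole span, so no level is compared between genes. 0 columns were without a sample, and 6 repeat libraries of the sex experiment were not analysed here on their own; whether an animal's column includes the reads of its repeat is not given in the sources used here.

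Counts were fitted with edgeR 4.0.16 in R 4.3.3 (limma 3.58.1): filterByExpr, TMM scaling, a robust quasi-likelihood fit over the 4 groups of an experiment, with library set as a covariate in the LPS experiment, and Benjamini-Hochberg adjustment over all genes tested. The SE of a log2 fold change is its size divided by the square root of F. WT LPS 8 and WT LPS 9 differed by little more than sampling noise (chi-square per degree of freedom 1.86, next lowest pair 8.32) and were summed as 1 sample. Libraries were set apart from their labels' groups only where P2ry12 and Saa3 contradicted the label. Alternatives were DESeq2 1.42.0, other scaling, filters, covariates and samples, and leaving out each sample. The members, lists and tests were chosen with earlier results of these data known. Beside the members, the text names up to 4 called genes of a list with the lowest adjusted p, and the 3 genes with the highest correlation to a member. 2 genes of the lists are not reported here and enter no list count or marker sum. Biological coefficients of variation were 35.3% and 40.1%. On simulated counts, 17% of genes changed 2-fold and 99% of those changed 4-fold were recovered for male KO against WT (30742 genes), and 61% and 100% for LPS in KO (15755 genes). Both simulations used a spread near the 35.3% of the sex experiment, below the 40.1% of the LPS experiment, and no library-set effect. Only genes above a set expected count were changed, so the shares do not cover sparsely counted genes.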

Additional observations from a re-analysis of the deposited data

Results flagged for a closer look

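In 15 of 80 combinations of a gene and a group, 1 sample stood far from the others of its group by Dixon's criterion at the 95% level, which chance alone meets in about 5% of groups. Libraries with a high mitochondrial share account for 10 of these. KO ns 6 was the highest KO ns sample for Trem2 (2726 CPM, nearest 1294), Tyrobp (3116 CPM, nearest 934) and Cd9 (2958 CPM, nearest 1001), and the lowest for Itgax (16.2 CPM, nearest 32.4). KO LPS 5 was the lowest KO LPS sample for Apoe (201.2 CPM, nearest 769) and the highest for Tyrobp (1393 CPM, nearest 704), Cst7 (152.9 CPM, nearest 50.2) and Cd9 (689.5 CPM, nearest 277). WT LPS 7 was the highest WT LPS sample for Tyrobp (2547 CPM, nearest 604) and Cd9 (1099.6 CPM, nearest 263). The other 5 were Trem2 in male WT 5 (364.6 CPM, nearest 561) and in female WT 2 (377.6 CPM, nearest 492), Apoe in WT LPS 2 (328.8 CPM, nearest 605), Tyrobp in WT ns 4 (729.9 CPM, nearest 554) and Cst7 in female KO 3 (8.74 CPM, nearest 13.0). What sets these samples apart was not tested.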

How the results depend on the processing

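Over all settings 3440 values were recomputed; 3406 kept their side of the threshold, 17 lost a call, 17 gained one, no called value reversed, and 163 uncalled estimates changed sign. Without male WT 5 and female WT 2, 2 members were called in females and 1 over both sexes, against 0 with them; DESeq2 called 1 over both sexes. In the LPS experiment, every library as labelled left 0 of the 5 WT calls; library set 2 by itself left 0 in WT and 1 of 6 in KO, with fewer samples. Without the 4 libraries of high mitochondrial share, 1 member was called between KO and WT at LPS. The causes were not tested. Leaving out each sample in turn gave 0 to 1 calls over both sexes (1 without male WT 5), 5 to 6 in WT and 5 to 7 in KO under LPS, and 0 to 0 in the other comparisons. The labels tie same-numbered samples to no shared litter, batch or day. In the LPS experiment, deviations of pairs sharing both library set and number correlated at a mean of 0.20 over 38 pairs (21 over 0.1). Within a sex of the sex experiment, the mean of same-numbered pairs was 0.13 over 8 pairs (5 over 0.1). Other pairs had means of 0.015 over 276 (122 over 0.1) and -0.030 over 32 (7 over 0.1). Those of the LPS experiment include pairs from different library sets. Library set was not removed from the deviations, so it cannot be told apart from the number there. The mean of pairs sharing a number was thus the higher in both, though not every such pair was over 0.1. Over all groups of the sex experiment, across both sexes, it was 0.0068 over 24 pairs (7 over 0.1). The 97 other pairs there had a mean of -0.00077 (27 over 0.1). Since the labels do not say what a number pairs, it was not a block in the main fit. A sample went best with its own number in 10 of 28 cases in the LPS experiment, 8 of 16 within a sex and 4 of 18 across both sexes. The share that unrelated numbers would give was not computed. With the replicate block, 1 member was called over both sexes (Apoe, 0.60 ± 0.10, adjusted p = 0.0153), as with the replicate block within sex (1, 0.61 ± 0.10, adjusted p = 0.0305), 1 between the sexes (Apoe, 0.48 ± 0.10, adjusted p = 0.0461), 5 in WT and 7 in KO under LPS (Apoe added, -0.68 ± 0.20, adjusted p = 0.0126), and 0 elsewhere. The share of all genes called was not counted for the replicate blocks or, apart from male WT 5, for leaving out single samples. The member counts of those fits therefore stand without a share to read them against. Depth limits Gpnmb most, at 4 to 587 counts per fitted sample of the LPS experiment.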

Other observations

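Resting-state microglia genes, which are low in the disease-associated state, were counted as a list of 11. Under LPS 8 fell in WT and 7 in KO, against 15.2% and 14.1% of all genes, 0 rose in either, and the median log2 change was -1.13 in WT and -0.93 in KO, beside 0.03 and 0.01 over all genes tested. Gpr34, a lysophosphatidylserine receptor, changed by -2.72 ± 0.60 (log2 ± SE) in WT and -3.54 ± 0.53 in KO. In KO animals of the sex experiment P2ry13, the receptor gene beside P2ry12, was called with a log2 difference of -1.96 ± 0.13 over both sexes. Of 8 immediate early genes, which tissue dissociation can induce, 2 rose and 1 fell in WT and 3 rose and 1 fell in KO under LPS, beside 30.7% and 28.5% of all genes called either way. Fosb was higher in females than in males by 0.83 ± 0.18 (adjusted p = 0.045), a call lost without male WT 5 and female WT 2 (adjusted p = 0.0686), where Atf3 (1.29 ± 0.23, adjusted p = 0.0167) and Dusp1 (0.75 ± 0.16, adjusted p = 0.0367) were called instead. Whether dissociation moved with the members was not tested.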
